A study of Mus musculus with 6 samples.

Results

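Chemokines and cytokines made by or acting on the small intestinal epithelium were examined by RNA-seq in the duodenal epithelium of mice with and without *Esrra*. The group was chosen by symbol, with earlier results of these data known, and names 10 genes, *Ccl25*, *Ccl28*, *Ccl20*, *Ccl6*, *Ccl5*, *Cxcl9*, *Cxcl10*, *Cx3cl1*, *Il18* and *Il15*. Of these, 9 have a row among the 22611 genes of the expression table. *Ccl28* has none, so its expression was not analysed here, and it entered only the promoter search below. The comparison asks how expression in the duodenal epithelium differs upon loss of ESRRA, the estrogen-related receptor α, a nuclear receptor that binds DNA and regulates genes of energy metabolism. There were 3 WT libraries and 3 *Esrra*-/- libraries. The *Esrra*-/- mice carried a germline null allele, so the mutation was not limited to the epithelium, and the WT mice were littermate controls. Mice of both genotypes had received a high-fat diet (about 8 weeks), and males and females were used. Age at collection is not given in the sources used here. The epithelium of the first part of the small intestine was released with EDTA and mechanical force and lysed without sorting, so lymphocytes that sit within the epithelium came with it. Values are FPKM, fragment counts scaled to transcript length and to the size of the library.

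Chemokines are small secreted proteins that steer leukocytes along a gradient by binding G protein-coupled receptors on them, and they are named by the spacing of their first conserved cysteines. In the small intestine CCL25 is the ligand of CCR9 and draws T cells and plasma cells to the gut, CCL20 draws CCR6-bearing cells to lymphoid follicles, and CX3CL1 is a membrane-anchored ligand of CX3CR1 on macrophages. CXCL9 and CXCL10 are interferon-induced ligands of CXCR3, and CCL5 is made in quantity by activated and cytotoxic T cells. IL-18 is stored in epithelial cells as a precursor that caspase-1 cleaves, and IL-15, held on the cell surface by IL-15 receptor α, maintains intraepithelial lymphocytes.

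The families can be read in the coding sequences of the 7 measured chemokines. The following stretches are shown because they hold the cysteines for which each family is named. They were taken from GENCODE release M1 transcripts (NCBIM37, the assembly of mm9), in coding orientation, with both cysteine codons in capitals.
Ccl25: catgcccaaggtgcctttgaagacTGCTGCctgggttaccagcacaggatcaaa
Ccl20: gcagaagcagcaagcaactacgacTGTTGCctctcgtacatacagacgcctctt
Ccl6: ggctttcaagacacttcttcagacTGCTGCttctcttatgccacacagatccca
Ccl5: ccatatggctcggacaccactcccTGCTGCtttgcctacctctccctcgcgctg
Cxcl9: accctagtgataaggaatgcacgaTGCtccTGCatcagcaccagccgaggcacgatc
Cxcl10: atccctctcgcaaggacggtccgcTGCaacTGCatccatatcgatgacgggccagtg
Cx3cl1: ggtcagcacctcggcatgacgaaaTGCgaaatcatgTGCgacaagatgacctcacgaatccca
The cysteine codons are adjacent in *Ccl25*, *Ccl20*, *Ccl6* and *Ccl5*. They are separated by 1 codon in *Cxcl9* and *Cxcl10*. In *Cx3cl1* they stand at codons 32 and 36 of 395, with 3 codons between them. That coding sequence is the longest of the group, since CX3CL1 carries a mucin-like stalk and a membrane anchor, whereas the other 6 chemokines have 91 (*Ccl5*) to 144 (*Ccl25*) codons. *Il18* and *Il15* are not chemokines and have coding sequences of 192 and 162 codons.

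The libraries carried the markers of their labelled tissue. All 14 epithelial markers had a mean above 1 FPKM, and their sum was 35037 to 55783 FPKM in WT and 44644 to 59411 FPKM in *Esrra*-/-. *Esrra* fell from 49.4, 73.5 and 103.6 FPKM in WT to 10.4, 9.42 and 8.72 FPKM in *Esrra*-/- (log2 fold change -2.92, limma adjusted p = 0.0215), so that 12.6% of the mean WT transcript level was still listed. Markers of T cells and intraepithelial lymphocytes were present, with 14 of 16 above a mean of 1 FPKM and sums of 172 to 300 FPKM in WT and 135 to 345 FPKM in *Esrra*-/-, and both Cd3 and granzyme genes were among them. Myeloid markers summed to 20.2 to 21.5 and 18.7 to 26.2 FPKM, with 10 of 15 at a mean of 1 FPKM or less and *S100a8* listed at 0. Mesenchymal and endothelial markers summed to 3.39 to 3.79 and 3.28 to 7.68 FPKM. Of the 4 Y-linked genes measured, summed transcripts were 0.0487 FPKM in WT replicate 3 and 0.222 FPKM in *Esrra*-/- replicate 3, and 27.3 to 46.7 FPKM in the other 4 libraries. In bulk epithelium, a change in the number of cells of a type and a change in RNA per cell cannot be told apart.

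None of the measured chemokine and cytokine genes was called different between the genotypes. A gene was called at an unadjusted limma p under 0.05 with a log2 fold change beyond 0.58 in size, *Esrra*-/- over WT, fitted on log2(FPKM + 0.1) across the 10596 genes with a mean above 1 FPKM. That filter kept 7 of the 9 genes, and *Cxcl10* and *Cxcl9*, which fell under it, were read from a fit without the filter. Of the 7 tested genes 0 were called, against 4.63% of all genes tested (1.35% higher and 3.28% lower), and 0 of 7 had an unadjusted limma p under 0.05, against 10.8%. At an adjusted p under 0.05 there were also 0 of 7, against 0.0378%. The values of the genotypes overlapped for all 9 measured genes, whereas they did not overlap for 17.6% of the genes tested. The 7 log2 fold changes ran from -0.52 for *Ccl6* to 0.44 for *Ccl20* with a median of 0.07, beside a median of 0.03 over all genes. With so few genes and 3 mice in each group these counts do not show that the genes are alike in both genotypes, and the 95% interval of each difference is given below.

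**Figure D1:**
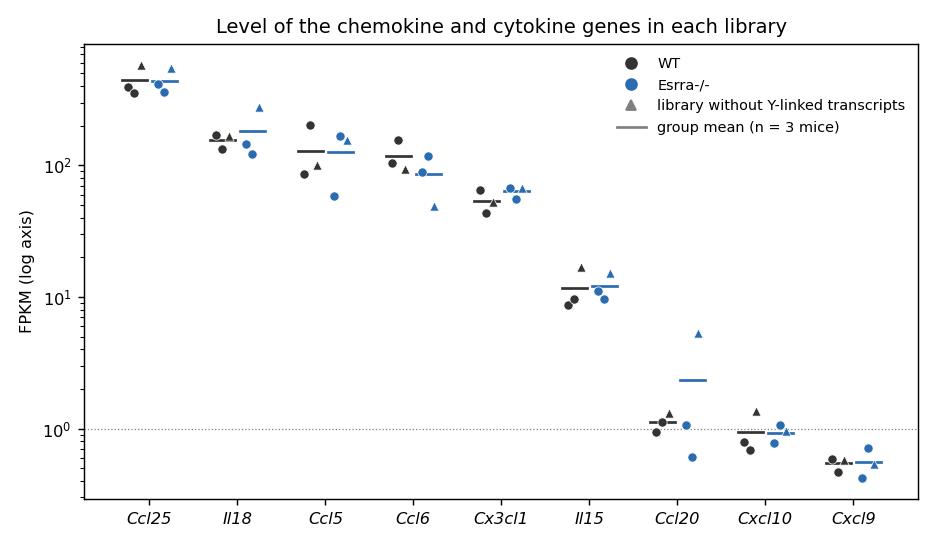
FPKM of the 9 measured genes in each library, on a log axis, ordered by mean level. Circles and triangles are single libraries of WT (black) and *Esrra*-/- (blue), triangles are the libraries without Y-linked transcripts, bars are group means (n = 3 mice), and the dotted line is 1 FPKM. Levels span from 0.420 FPKM (*Cxcl9*) to 583 FPKM (*Ccl25*), and black and blue points overlap for every gene.

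*Ccl25*, the gut-homing chemokine of the small intestine, was the most abundant of the group. In mm9 it is annotated on the plus strand of chromosome 8, positions 4325210 to 4360020. Its levels were 398, 354 and 583 FPKM in the WT libraries and 412, 358 and 549 FPKM in the *Esrra*-/- libraries. In each genotype the library without Y-linked transcripts was the highest, and the genotypes overlapped throughout. The means were 445 ± 122 FPKM (WT) and 440 ± 98.2 FPKM (*Esrra*-/-), with SD over 3 mice each, and the log2 fold change was -0.005 (SE 0.26, adjusted p from limma = 0.997). The 95% interval, 0.656-fold to 1.51-fold, leaves room for differences in either direction. *Ccl25* stood above 99.1% of all genes in the table by mean level. GENCODE M1 gives this symbol to a second, overlapping gene model on the same strand, from 4325230 to 4348790, so which of the models the fragments came from is uncertain.

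*Ccr9*, the receptor of CCL25, had 1.31, 2.86 and 1.54 FPKM in WT and 1.04, 1.48 and 1.19 FPKM in *Esrra*-/-. The *Esrra*-/- values lay in the lower part of the WT range or under it, with a log2 fold change of -0.52 (limma adjusted p = 0.605). *Ccr10*, which binds CCL28, did not exceed 0.0978 FPKM in any library.

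*Cx3cl1*, on chromosome 8 from 97295909 to 97306323, had 64.5, 43.9 and 52.4 FPKM in WT and 67.0, 55.8 and 67.8 FPKM in *Esrra*-/-. Only WT replicate 1 reached into the *Esrra*-/- range, and the means were 53.6 ± 10.4 and 63.5 ± 6.73 FPKM (SD, n = 3 each). The log2 fold change was 0.26 (SE 0.18, adjusted p from limma = 0.629), with a 95% interval of 0.896-fold to 1.59-fold, the narrowest of the 9 genes. *Cx3cr1*, its receptor, stayed at or under 0.250 FPKM. The metalloproteases that release CX3CL1 from the membrane were both measured. *Adam10* averaged 20.9 ± 4.44 FPKM in WT and 22.8 ± 1.32 in *Esrra*-/-. *Adam17* had 4.94 ± 0.623 and 5.89 ± 0.434 FPKM (SD, n = 3 each). *Adam17* values did not overlap between genotypes, and its log2 fold change of 0.25 was not called (limma adjusted p = 0.561).

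*Ccl20*, on chromosome 1 from 83113341 to 83115742, was low in 5 libraries and raised in 1. It had 0.936, 1.12 and 1.32 FPKM in WT and 1.07, 0.606 and 5.32 FPKM in *Esrra*-/-. The value of *Esrra*-/- replicate 3, a library without Y-linked transcripts, was 8.77 times the lowest value, found in *Esrra*-/- replicate 2, so the highest and the lowest library belong to 1 genotype. Without that high library the log2 fold change turned from 0.44 to -0.42 (limma adjusted p = 0.813). The means were 1.13 ± 0.194 FPKM for WT, just above the filter, and 2.33 ± 2.59 FPKM for *Esrra*-/- (SD, n = 3 each). The 95% interval of the difference, 0.437-fold to 4.21-fold, was the widest of the group. The receptor gene *Ccr6* did not exceed 0.131 FPKM.

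NF-κB and IL-17 receptor signalling lie upstream of *Ccl20* in epithelial cells. Of 22 listed genes of these routes 17 were tested. Of these, 13 had positive log2 fold changes, 0 were called in either direction, against 4.63% of all genes tested, and the median was 0.16, beside 0.03 over all genes. *Tnfrsf1a*, the receptor of TNF, had the smallest limma p of the list (log2 fold change 0.35, adjusted p = 0.518), and its values of 92.3, 85.2 and 109 FPKM in WT and 113, 110 and 143 FPKM in *Esrra*-/- did not overlap. In *Esrra*-/- replicate 3, where *Ccl20* was highest, *Relb* was also highest at 39.6 FPKM, against 20.8 to 26.4 FPKM in the other libraries. This was not particular to *Relb*, as the sum of the 22 listed genes was 628 FPKM there, against 437 to 503 FPKM in the other libraries. *Relb* encodes a subunit of NF-κB, and its part in the *Ccl20* value was not tested.

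*Cxcl9* and *Cxcl10* lie 18558 bases apart on the minus strand of chromosome 5 of mm9, *Cxcl9* from 92750357 to 92757105 and *Cxcl10* from 92775664 to 92777915. Both were near or under 1 FPKM in every library. *Cxcl10* had 0.795, 0.691 and 1.36 FPKM in WT and 0.779, 1.06 and 0.962 FPKM in *Esrra*-/-. *Cxcl9* had 0.589, 0.470 and 0.581 FPKM in WT and 0.420, 0.712 and 0.535 FPKM in *Esrra*-/-. *Cxcl10* was highest in WT replicate 3, a library without Y-linked transcripts, and without it the log2 fold change was 0.29. The genotypes overlapped for both genes, and group means differed by less than the spread between mice. Without the expression filter the log2 fold change was 0.02 for *Cxcl10* (95% interval 0.604-fold to 1.70-fold, limma adjusted p = 0.996). For *Cxcl9* it was 0.0007 (95% interval 0.630-fold to 1.59-fold). *Cxcr3*, the receptor of both, had 0.766, 1.05 and 1.04 FPKM in WT and 0.317, 1.17 and 0.725 FPKM in *Esrra*-/-, a wide spread with full overlap.

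Genes that carry the interferon signal to these chemokines were measured as well. Of 22 listed receptors, kinases, transcription factors and nucleic acid sensors, 20 were tested. Of these, 19 had positive log2 fold changes, with a median of 0.25 over the list beside 0.03 over all genes. The log2 fold changes ran from -0.58 (*Tmem173*, which encodes the DNA-sensing adaptor STING) to 0.46 (*Irf7*, highest in *Esrra*-/- replicate 3), and none of the 20 was called, against 4.63% of all genes tested. At an unadjusted limma p under 0.05 there were 4 of 20, all higher in *Esrra*-/-, against 10.8% of all genes tested, and the genotypes did not overlap for 9 of 20, against 17.6%. *Stat2*, a transducer of type I interferon, had 10.0, 9.82 and 9.33 FPKM in WT and 11.8, 13.7 and 14.5 FPKM in *Esrra*-/-. All 3 *Esrra*-/- values were above all 3 WT values (log2 fold change 0.45, limma adjusted p = 0.326).

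Promoters were taken from RefSeq on GRCm38.p6, a later build than the mm9 of the gene positions above, as windows of 250 bases before to 50 bases after a transcription start. Windows were found for 8 of the 10 genes, with 9 windows in all, and not for *Ccl5* or *Il15*. They were searched on both strands for the interferon-stimulated response element (ISRE, GAAANNGAAA), the gamma-activated sequence (TTCNNNGAA), the NF-κB motif by its 10-base consensus, the core site of the ESRR motif (AAGGTCA) and TATAAA. The windows of *Cxcl10* and its neighbour *Cxcl9* are shown because both answer to interferon, and those of *Ccl20* and *Ccl6* because they hold the ESRR core site. Capitals mark every match to a searched motif.
Cxcl10, chr5:92348840-92349139, minus strand: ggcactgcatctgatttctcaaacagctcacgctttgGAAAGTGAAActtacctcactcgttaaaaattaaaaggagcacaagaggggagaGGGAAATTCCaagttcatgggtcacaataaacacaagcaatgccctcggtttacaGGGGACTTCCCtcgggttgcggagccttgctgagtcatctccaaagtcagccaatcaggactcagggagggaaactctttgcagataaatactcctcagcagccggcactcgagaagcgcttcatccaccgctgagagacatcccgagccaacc
Cxcl9, chr5:92328030-92328329, minus strand: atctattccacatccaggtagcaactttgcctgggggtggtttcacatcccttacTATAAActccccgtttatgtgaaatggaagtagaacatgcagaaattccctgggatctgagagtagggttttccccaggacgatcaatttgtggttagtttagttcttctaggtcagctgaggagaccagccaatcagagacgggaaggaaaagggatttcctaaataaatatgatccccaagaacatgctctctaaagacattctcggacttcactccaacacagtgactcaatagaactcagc
Ccl20, chr1:83116516-83116815, plus strand: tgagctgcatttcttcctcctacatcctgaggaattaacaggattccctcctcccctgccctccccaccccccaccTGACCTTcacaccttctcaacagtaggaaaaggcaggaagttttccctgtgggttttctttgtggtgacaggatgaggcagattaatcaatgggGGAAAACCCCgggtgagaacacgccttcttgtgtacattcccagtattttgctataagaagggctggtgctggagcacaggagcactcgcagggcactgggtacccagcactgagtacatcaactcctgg
Ccl6, chr11:83593038-83593337, minus strand: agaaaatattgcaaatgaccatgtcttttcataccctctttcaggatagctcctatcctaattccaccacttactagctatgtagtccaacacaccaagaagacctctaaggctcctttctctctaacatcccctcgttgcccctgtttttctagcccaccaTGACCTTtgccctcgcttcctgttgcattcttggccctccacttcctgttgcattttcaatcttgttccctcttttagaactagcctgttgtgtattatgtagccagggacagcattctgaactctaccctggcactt
The *Cxcl10* window holds GAAAGTGAAA, an ISRE match from position -213 relative to the transcription start. It also holds NF-κB matches, GGGAAATTCC and the overlapping pair GGGGACTTCC and GGGACTTCCC. An ISRE match is found in 3.44% of the 32851 windows of the table and an NF-κB match in 8.46%. In the *Cxcl9* window the capitals mark TATAAA, found in 13.6% of windows, and no other searched motif matched there. The gamma-activated sequence, found in 8.30% of all windows, matched in none of the 9. The *Ccl20* window holds GGAAAACCCC, an NF-κB match when read on the other strand, and TGACCTT, which is the ESRR core site read on the other strand. TGACCTT also stands in the *Ccl6* window, and this core site occurs in 4.72% of all windows. These are matches of letters, and binding at them was not measured here.

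*Ccl5*, on chromosome 11 from 83339280 to 83344020, was the most variable of the abundant genes within both genotypes. Its levels were 86.0, 202 and 101 FPKM in WT and 58.6, 168 and 155 FPKM in *Esrra*-/-. The highest was WT replicate 2 and the lowest *Esrra*-/- replicate 1, so the genotypes spanned much the same range. The means were 130 ± 63.0 and 127 ± 59.8 FPKM (SD, n = 3 each), with a log2 fold change of -0.07 (SE 0.47, adjusted p from limma = 0.970) and a 95% interval of 0.443-fold to 2.06-fold. The sign rested on single libraries. Without WT replicate 2 the log2 fold change was 0.30, and without *Esrra*-/- replicate 1 it was 0.42 (limma adjusted p = 0.923 and 0.860).

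The summed T cell and intraepithelial lymphocyte markers were 176, 300 and 172 FPKM in WT and 135, 266 and 345 FPKM in *Esrra*-/-. The 3 libraries with the most of these markers were the 3 with the most *Ccl5*, and *Esrra*-/- replicate 1 had the least of both. *Cd3g*, a subunit of the T cell receptor complex, ran alongside with 10.3, 23.7 and 12.1 FPKM in WT and 9.42, 20.6 and 19.9 FPKM in *Esrra*-/-. Of the 14 markers tested 0 were called, against 4.63% of all genes tested, with a median log2 fold change of 0.10 beside 0.03 over all genes. Their part in the *Ccl5* values was not tested.

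**Figure D2:**
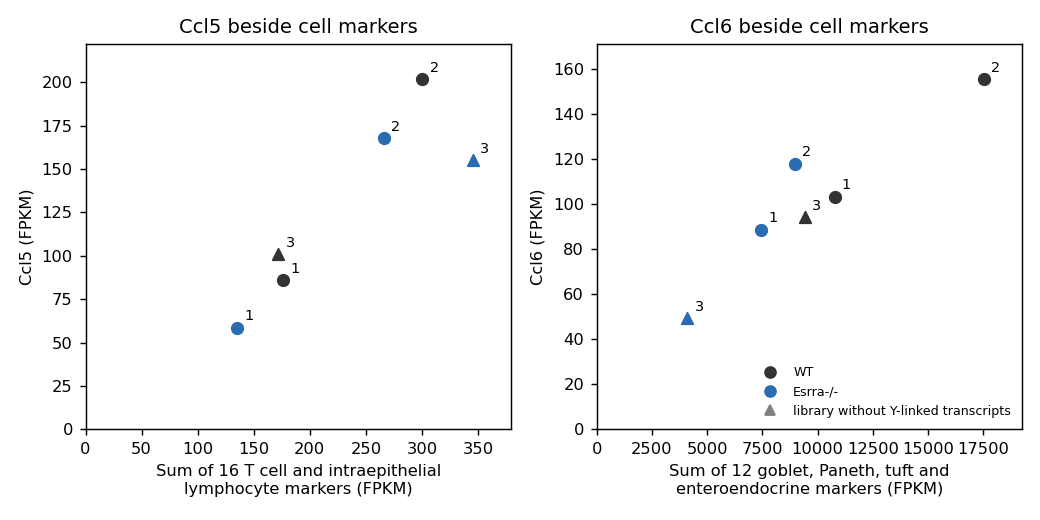
*Ccl5* against the sum of 16 T cell and intraepithelial lymphocyte markers (left) and *Ccl6* against the sum of 12 goblet, Paneth, tuft and enteroendocrine markers (right), all in FPKM. Each point is 1 library with its replicate number, WT in black and *Esrra*-/- in blue, triangles without Y-linked transcripts. *Esrra*-/- replicate 3 has the lowest marker sum (4105 FPKM) and the lowest *Ccl6* (49.4 FPKM) in the right panel.

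*Ccl6* is a CC chemokine of the CCR1 group, 57363 bases from *Ccl5* on chromosome 11, from 83401384 to 83406589. It had the most negative difference of the group. Its levels were 103, 156 and 94.3 FPKM in WT and 88.8, 118 and 49.4 FPKM in *Esrra*-/-. The lowest library was *Esrra*-/- replicate 3, and *Esrra*-/- replicate 2 lay above 2 of the WT libraries. The means were 118 ± 33.1 and 85.4 ± 34.5 FPKM (SD, n = 3 each), or 72.5% of WT in *Esrra*-/-. The log2 fold change was -0.52 (SE 0.34, adjusted p from limma = 0.613), with a 95% interval of 0.402-fold to 1.22-fold. Without *Esrra*-/- replicate 2 *Ccl6* was called lower, at a log2 fold change of -0.80 (limma unadjusted p = 0.0447, adjusted p = 0.394). Without *Esrra*-/- replicate 3 the log2 fold change was -0.17, and without both libraries that lack Y-linked transcripts it was -0.31.

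Summed markers of crypt cells and of secretory cells, the latter through Paneth cell genes, were highest and lowest in the same libraries as *Ccl6*. *Lyz1*, the Paneth cell lysozyme, had 2893, 5286 and 2407 FPKM in WT and 1538, 2264 and 466 FPKM in *Esrra*-/-. The 12 goblet, Paneth, tuft and enteroendocrine markers summed to 10772, 17521 and 9420 FPKM in WT and 7453, 8981 and 4105 FPKM in *Esrra*-/-. Of these 12 genes 3 were called lower, against 3.28% of all genes tested, and 0 higher. The 3 are the Paneth cell genes *Defa24*, *Lyz1* and *Ang4*. None of the goblet cell genes of the same list was called, with log2 fold changes of 0.29 for *Muc2*, 0.33 for *Clca3*, 0.31 for *Fcgbp* and -0.05 for *Tff3*, and *Muc2* was lowest in WT replicate 2, where *Ccl6* was highest. All 8 crypt markers had negative log2 fold changes with a median of -0.75, and 1 of them was called lower. WT replicate 2 had the highest and *Esrra*-/- replicate 3 the lowest sum of both lists, as of *Ccl6*. Their part in the *Ccl6* values was not tested. *Ccr1*, a receptor of CCL6, did not exceed 0.114 FPKM.

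*Il18* was the second most abundant of the genes, on chromosome 9 from 50383378 to 50389942. It had 171, 132 and 168 FPKM in WT and 145, 122 and 279 FPKM in *Esrra*-/-. All but *Esrra*-/- replicate 3 lay between 122 and 171 FPKM, and that library held the highest *Ccl20* as well. The means were 157 ± 21.7 and 182 ± 84.9 FPKM (SD, n = 3 each), with a log2 fold change of 0.12 (SE 0.31, adjusted p from limma = 0.911) and a 95% interval of 0.657-fold to 1.81-fold. Without *Esrra*-/- replicate 3 the log2 fold change was -0.23. Without both libraries that lack Y-linked transcripts it was -0.18.

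Among 17 listed inflammasome and signalling genes of IL-18 the largest difference was that of *Nlrp1b*, which encodes an inflammasome sensor that activates caspase-1. *Nlrp1b* had 0.0130, 0.0317 and 0 FPKM in WT and 1.61, 1.28 and 1.56 FPKM in *Esrra*-/-. It was near 0 in every WT library and above 1 FPKM in every *Esrra*-/- library. With a mean under 1 FPKM it fell below the expression filter, and in the fit without that filter, in which 4.55% of genes were called, *Nlrp1b* was called higher (log2 fold change 3.79, SE 0.25, limma adjusted p = 0.0111). The gene has close relatives in the genome, so the assignment of fragments to it is uncertain. The 14 genes of the list above the filter were tested, 12 with a positive and 2 with a negative log2 fold change. None of these 14 was called, against 4.63% of all genes above the filter, none had an unadjusted limma p under 0.05, against 10.8%, and the median was 0.08, beside 0.03 over all genes. *Casp1*, the protease that cleaves the precursor, averaged 108 ± 10.6 FPKM in WT and 109 ± 10.1 in *Esrra*-/-. *Nlrp6*, an epithelial inflammasome sensor, had 91.7 ± 9.97 and 91.8 ± 8.83 FPKM (SD, n = 3 each). *Gsdmd*, the pore-forming protein cleaved beside IL-18, had 271, 263 and 274 FPKM in WT and 315, 249 and 376 FPKM in *Esrra*-/-. In *Esrra*-/- replicate 3, the library with the most *Il18*, *Gsdmd* was also at its highest, as was the sum of the epithelial markers (59411 FPKM). *Il18bp*, the soluble inhibitor, had 5.55 ± 0.895 and 4.86 ± 0.577 FPKM, and *Il18r1* did not exceed 0.368 FPKM.

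*Il15*, on the minus strand of chromosome 8 (84855536 to 84927121), was expressed at a middle level, above 54.1% of the genes tested. It had 8.72, 9.67 and 16.9 FPKM in WT and 11.2, 9.58 and 15.4 FPKM in *Esrra*-/-. As with *Ccl25*, the library without Y-linked transcripts was the highest in each genotype. The means were 11.8 ± 4.50 and 12.0 ± 2.98 FPKM (SD, n = 3 each), with a log2 fold change of 0.07 (SE 0.28, adjusted p from limma = 0.949) and a 95% interval of 0.662-fold to 1.65-fold. *Il15ra*, which presents IL-15 to lymphocytes, had 11.2, 6.42 and 9.63 FPKM in WT and 13.3, 7.85 and 7.17 FPKM in *Esrra*-/-. The signalling chains *Il2rb* and *Il2rg* had log2 fold changes of 0.08 and -0.18, and *Il2rb* ranged from 1.86 FPKM in replicate 1 to 7.49 FPKM in replicate 3 within *Esrra*-/- alone. Of the 13 receptor genes listed for the group, 4 were tested (*Ccr9*, *Il15ra*, *Il2rb* and *Il2rg*) and 0 were called, against 4.63% of all genes tested.

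**Figure D3:**
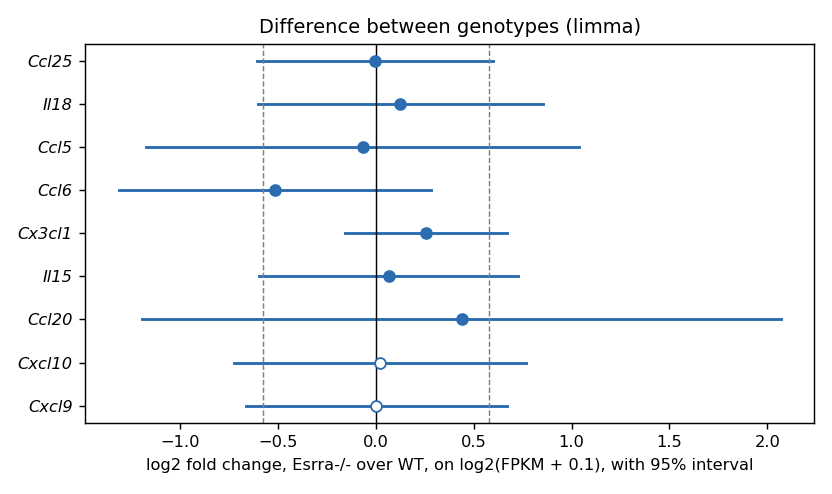
Log2 fold change of each gene, *Esrra*-/- over WT, on log2(FPKM + 0.1) with its 95% interval from limma (n = 3 mice in each group). Open circles are *Cxcl10* and *Cxcl9*, read from the fit without an expression filter, and dashed lines mark 0.58 in either direction. Every interval contains 0, from the narrowest for *Cx3cl1* to the widest for *Ccl20*.

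Mice of the same genotype differed widely in these genes. Around the mean of all 6 libraries the deviations on the log2 scale ran from -1.01 for *Ccl5* in *Esrra*-/- replicate 1 to 1.93 for *Ccl20* in *Esrra*-/- replicate 3. The libraries without Y-linked transcripts stood out from others of their genotype in *Ccl25* (0.43 in WT and 0.34 in *Esrra*-/-) and *Il15* (0.55 and 0.41). They are both replicate 3, so that a difference in sex and any other difference of those mice cannot be told apart. In each genotype these libraries also had the highest sum of epithelial markers, 55783 FPKM in WT and 59411 FPKM in *Esrra*-/-. The part of cell makeup in the *Ccl25* and *Il15* levels was not tested. When lack of Y-linked transcripts was added to the fit as a term, none of the 7 tested genes was called, against 586 of all 10596 tested. In that fit *Ccl6* had a log2 fold change of -0.52 (limma unadjusted p = 0.0596).

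**Figure D4:**
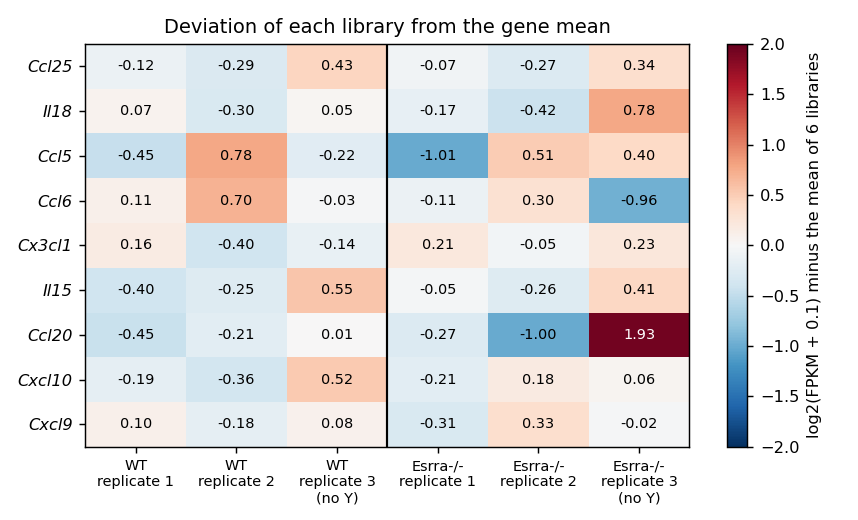
Deviation of log2(FPKM + 0.1) in each library from the mean of the 6 libraries, per gene, with values printed in the cells. Red is above and blue below the gene's mean, and the vertical line separates WT from *Esrra*-/-. *Ccl25* and *Il15* are above their means in both replicate 3 libraries only, while *Esrra*-/- replicate 3 holds the extremes of *Il18*, *Ccl6* and *Ccl20*.

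By level the genes fell into the order *Ccl25*, *Il18*, *Ccl5*, *Ccl6*, *Cx3cl1*, *Il15*, *Ccl20*, *Cxcl10* and *Cxcl9*, from 442 to 0.551 FPKM over the 6 libraries. Neighbours were compared within libraries by a two-sided exact permutation test that flips the sign of each library's difference, for which the smallest p is 0.0313 and the smallest adjusted p over these 8 pairs was 0.0625. The order was set by the means of these same libraries, so the tests are given as a description. *Ccl25* was above *Il18* in 6 of 6 libraries (2.61-fold by means), *Cx3cl1* above *Il15* in 6 of 6 (4.92-fold), *Il15* above *Ccl20* in 6 of 6 (6.88-fold) and *Cxcl10* above *Cxcl9* in 6 of 6 (1.71-fold), each at that smallest p. After adjustment no pair passed 0.05, which with 6 libraries does not show that neighbours were alike in level. *Il18*, *Ccl5* and *Ccl6* exchanged places between libraries. *Il18* was above *Ccl5* in 4 of 6 (exact p = 0.219), and *Ccl5* above *Ccl6* in 4 of 6 (exact p = 0.438). *Ccl6* was above *Cx3cl1* in 5 of 6 (exact p = 0.0938) and *Ccl20* above *Cxcl10* in 4 of 6 (exact p = 0.375), so the order of these neighbours did not hold in every library.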

How the data were processed

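RNA-seq values of 3 WT and 3 *Esrra*-/- libraries were used, described by the study as biological replicates and taken here as 1 mouse each, with groups from the sample labels. The authors deposited FPKM values per gene, and a table of their own comparison (mean normalized count, fold change, its error, statistic, p and adjusted p), which was not used. As the study's methods and the submitters' processing notes give it, reads were checked with FastQC 0.11.3, quantified with kallisto (version given as 2.1.0) against mm9, and FPKM were calculated with DESeq2 (version given as 2.2.1). The annotation is not given in the sources used here. FPKM carry no depth, so precision is given by the spread between mice. Ratios of low values (under 0.2 FPKM) gave 1 fragment a value of 0.976 (lowest library) to 1.21 (highest) relative to WT replicate 1.

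From the FPKM, log2(FPKM + 0.1) of the 10596 genes with a mean above 1 FPKM was fitted with limma 3.58.1 (R 4.3.3; eBayes with trend, no covariate) and adjusted by Benjamini-Hochberg over all genes tested. Fold changes are on that scale, which understates changes of low genes. Errors are SD over mice, and 95% intervals are limma's. The fit was tested on simulated data. No test for counts was applied to FPKM. Neighbours in level were compared with an exact sign-flip permutation test. The named genes were the listed chemokines and cytokines, *Esrra*, their receptors, up to 3 genes with the smallest p in each pathway list, the 2 closest by correlation, and markers a result turns on. *Casp1*, *Nlrp6*, *Tmem173*, *Irf7*, *Nlrp1b*, *Cxcl2*, *Il2* and the genes listed at 0 fall outside this rule and were named after their values were seen. Single values of some listed genes are not reported here. Members and lists were chosen with earlier results of these data known. Alternatives were a pseudocount of 1, other filters, scalings and thresholds, no trend, the replicate number as a block, Y-linked transcripts as a covariate, and libraries left out.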

Additional observations from a re-analysis of the deposited data

How the results depend on the processing

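Of the 7 tested genes, 0 were called higher or lower under the alternatives that kept all libraries and 0 without both libraries that lack Y-linked transcripts, where, as with FPKM above 1 required in all 6 libraries, *Ccl20* fell below the filter and has no value, and the count called lower ranged from 0 to 1 with each library left out in turn (*Ccl6* without *Esrra*-/- replicate 2) while the count called higher was 0 in each. The count of all genes called, 491, was 805 without a filter on low values, 4 at an adjusted p under 0.05, 1144 at an unadjusted p alone, and 395 to 739 with each library left out, the highest without *Esrra*-/- replicate 2. Apart from single libraries left out, log2 fold changes that turned direction were those of *Ccl25*, 0.12 under quantile normalization and 0.036 without both libraries that lack Y-linked transcripts, of *Il18*, -0.18 without those libraries, and of *Cxcl9*, -0.000898 under median-ratio scaling, all uncalled, and the cause was not tested. With each library left out, which turned the direction of all but *Ccl6* and *Cx3cl1* at least once, the log2 fold change ran from -0.18 to 0.21 for *Ccl25*, -0.42 to 1.05 for *Ccl20*, -0.34 to 0.42 for *Ccl5*, -0.80 to -0.17 for *Ccl6*, 0.12 to 0.40 for *Cx3cl1*, -0.12 to 0.36 for *Il15*, -0.23 to 0.37 for *Il18*, -0.16 to 0.29 for *Cxcl10* and -0.17 to 0.16 for *Cxcl9*. The sample labels do not say whether the replicate numbers pair the mice. Correlations of deviations across genes were 0.01, 0.26 and 0.38 for same-numbered libraries, and ran from -0.37 to 0.18 for libraries of different number. With the replicate block 633 of 10596 genes were called, among them 0 of the 7. In that fit *Ccl6* had a log2 fold change of -0.52 (limma unadjusted p = 0.0217). The order of levels held in all libraries for 4 of 8 neighbouring pairs, and for 4 to 5 of them in the subsets tried.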

Other observations

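Other secreted signals were measured beside these genes, 28 of a list of 29 further chemokines and all of a list of 55 further cytokines. Of the chemokines, 6 had a mean above 1 FPKM, and 1 of these was called, against 4.63% of all genes tested. *Ccl9*, a CC chemokine of the same CCR1-binding group as *Ccl6*, had 5.79, 7.60 and 5.10 FPKM in WT and 3.58, 4.71 and 2.03 FPKM in *Esrra*-/-. It was called lower, with a log2 fold change of -0.88 (limma adjusted p = 0.393), and as with *Ccl6* WT replicate 2 was the highest library and *Esrra*-/- replicate 3 the lowest. *Cxcl16*, a membrane-bound chemokine that binds CXCR6 on lymphocytes, had 15.6, 10.8 and 24.8 FPKM in WT and 32.0, 18.1 and 39.3 FPKM in *Esrra*-/- (log2 fold change 0.81, limma adjusted p = 0.487), so that the genotypes overlapped and the difference was not called. *Cxcl2* had a mean under 1 FPKM and was called lower in the fit without the expression filter, in which 4.55% of genes were called. Its log2 fold change was -1.56 (limma adjusted p = 0.531), with 0.638, 0.0635 and 0.113 FPKM in WT and 0 in every *Esrra*-/- library. *Ccl2*, *Ccl7* and *Ccl19*, chemokines of inflamed or lymphoid tissue, were listed at 0 in every library.

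Of the further cytokines 15 were tested and 1 was called, against 4.63% of all genes tested. *Mif*, a ubiquitous cytokine with enzymatic activity, had 94.9, 110 and 118 FPKM in WT and 56.8, 84.7 and 63.2 FPKM in *Esrra*-/-, and was called lower with a log2 fold change of -0.67 (limma adjusted p = 0.326). *Csf2*, the growth factor of granulocytes and macrophages, had 2.19, 2.73 and 2.62 FPKM in WT and 3.28, 3.53 and 4.59 FPKM in *Esrra*-/-. Its values did not overlap between genotypes, and its log2 fold change of 0.57 fell just short of a call (limma unadjusted p = 0.0174, adjusted p = 0.378). *Il2*, which did not exceed 0.129 FPKM, was called lower in the fit without the expression filter (log2 fold change -0.72, limma adjusted p = 0.562). *Il6*, *Il17a* and *Il22* were listed at 0 in all libraries.

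As a description, the genes whose log2 levels followed each gene most closely over the 6 libraries (Pearson r, among 10595 other genes tested) were *Phospho1* (r = 0.998) and *Psmd9* for *Ccl25*, *Ints8* and *Tspan12* for *Il18*, *Rinl* and *Selplg* for *Ccl5*, *Rgmb* and *Defa20* for *Ccl6*, *Idua* and *Tmem51* for *Cx3cl1*, *Spata2L* and *Gstm6* for *Il15*, and *Tapbp* and *Irak4* for *Ccl20*. All these r were at least 0.983. The 6 points share libraries and their cell makeup, and 27 to 199 genes per chemokine or cytokine had r above 0.95.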
